A study of Mus musculus with 8 samples.

Results

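The genes described here are 10 T cell genes of the mouse gut, measured in RNA of whole duodenum from mice that lack IκBα, the product of Nfkbia, in the intestinal epithelium. They were taken by symbol: Cd3e and Cd3g, 7 genes of CD8 intraepithelial and cytotoxic lymphocytes (Cd8a, Cd8b1, Itgae, Gzma, Gzmb, Ccr9 and Cd160), and Cd4. Each of the 10 had 1 probe set, out of 22206 on the Clariom S array, a 1-colour expression array. The 4 knockout mice carried floxed Nfkbia and Villin-Cre, which deletes the promoter and first exons of the gene in villin-expressing epithelium, a cell type other than the T cells that carry the genes described. Each was compared with an untreated wild-type littermate of the same age, which was 8 weeks in pairs 1 and 3, 11 in pair 2 and 9 in pair 4. The sources used here do not say whether the wild types carried floxed alleles. Each group had 2 males and 2 females by label, and in pairs 3 and 4 the siblings differed in sex.

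Most T cells of the small intestine lie either between the epithelial cells or in the lamina propria beneath them. Intraepithelial lymphocytes are largely CD8-positive, carry the integrin CD103 (gene Itgae), which binds E-cadherin on epithelial cells, and hold granzymes, the proteases of cytotoxic granules. Helper T cells carry CD4 and are found mainly in the lamina propria and in lymphoid follicles. In the mouse, CD4 is also carried by some gut macrophages and innate lymphoid cells. Epithelial cells support intraepithelial lymphocytes through interleukin-15, which they present on its receptor chain IL-15Rα.

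All values below are log2 expression per probe set, and a difference of 1 is a 2-fold change. Nfkbia was lower in knockouts in 4 of 4 pairs (−2.65 ± 0.92, SD, n = 4 pairs, limma adjusted p = 0.0130), with the smallest difference in pair 3. Its adjusted p was 0.0545, 0.0582 and 0.0512 without pair 1, 2 or 4, above the threshold of 0.05 used here, and 0.00106 without pair 3. Array medians ran from 6.77 to 6.81, and RNA integrity numbers from 7.0 to 8.7, with the lowest in the knockout of pair 4. The deposited values hold almost no differences between sibling pairs: over the 10 genes the 4 pair means of a gene differed by at most 0.11. A knockout that is low in its group is therefore paired with a wild type that is high in its group, and the within-pair difference is the quantity to read. All 10 genes lay above 5.65, a background level set at the 95th percentile of the means of 1091 olfactory receptor probe sets, and so did 12 of 12 epithelium markers. Because RNA came from whole tissue, fewer cells of a type and less RNA per cell cannot be told apart.

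Of the 10 genes, Cd4 was higher in knockouts, and it alone passed the threshold of an adjusted p under 0.05 (limma with the sibling pair as a block, Benjamini-Hochberg over all probe sets). Of all probe sets, 5.86% were called, 3.16% higher and 2.7% lower, so 1 call among 10 genes is near the background. Without the block limma called 8 of the 10 (2 higher and 6 lower), against 34.4% of all probe sets (16.3% higher and 18.1% lower). The fit without the block takes siblings as independent although their values mirror each other, so its p-values are too small. At an unadjusted p under 0.05 with the block there were 8 of the 10 genes, against 27.5% of all probe sets. After centring each array on housekeeping genes, with the overall median then at −0.18, limma with the block called 7 lower and 0 higher, beside 5006 lower probe sets in all. The median difference was −0.33 over the 10 genes, against −0.015 over all probe sets. Cd4 and Ccr9 were higher in knockouts in all 4 pairs, and Cd3e, Cd3g, Itgae and Cd160 were lower in all 4. Of all probe sets, 16.5% were higher and 17.9% lower in every pair. Values of knockouts and wild types did not overlap for these 6 genes, as for 33.1% of all probe sets (15.9% with knockouts higher, 17.2% lower). Cd8a, Cd8b1, Gzma and Gzmb had a mean below 0 and differed in sign between pairs.

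**Figure D1:**
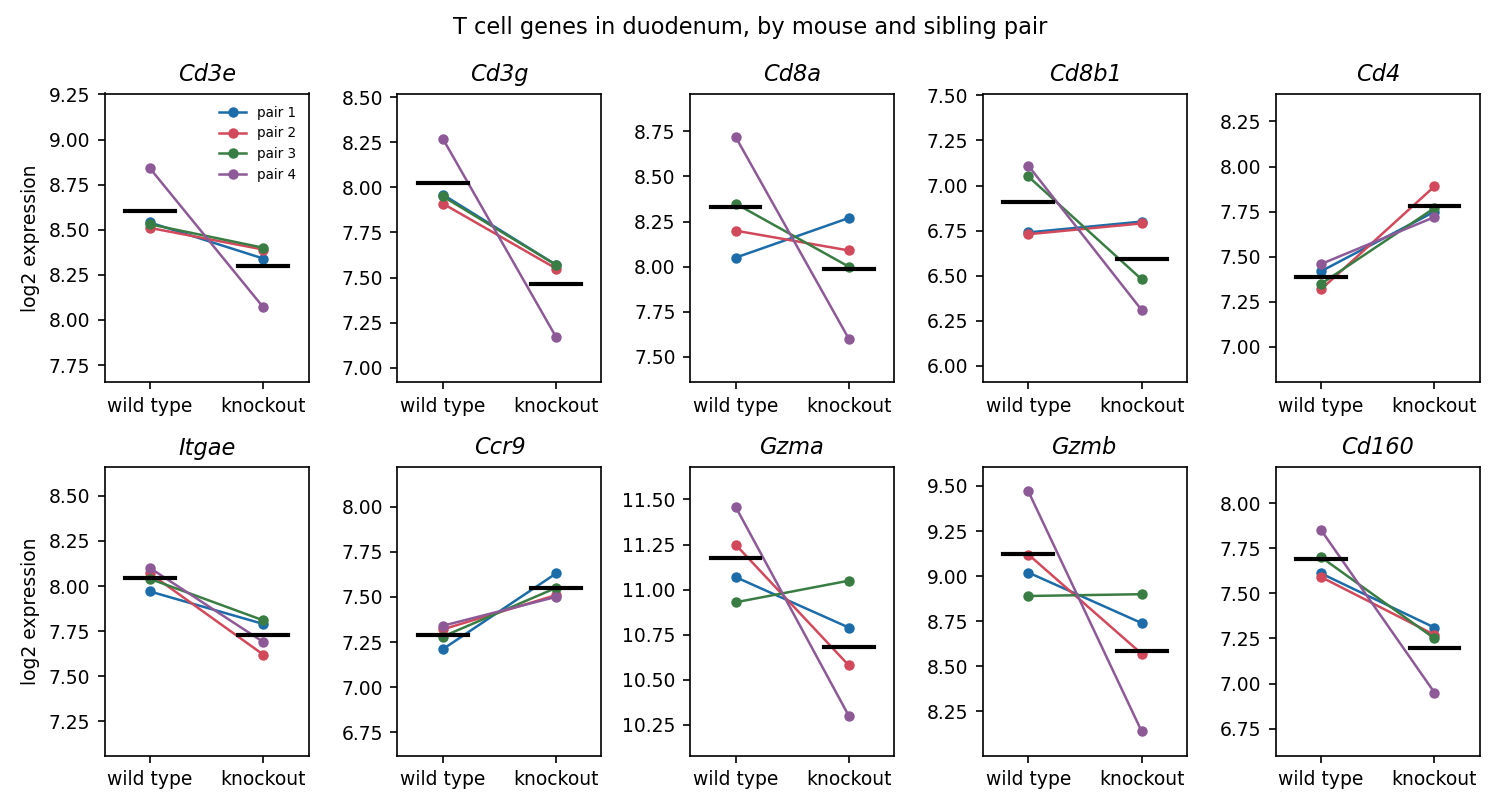
Log2 expression (y axis, with the same span in every panel) of the 10 genes in wild-type and knockout mice (x axis), with 1 line for each of the 4 sibling pairs and a black bar for each group mean. Lines of Cd4 and Ccr9 go up in all 4 pairs, and pair 4 has the steepest line down for Cd3e, Cd3g, Cd8a, Cd8b1, Gzma, Gzmb and Cd160.

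Cd4, the co-receptor of helper T cells, measured 7.75, 7.89, 7.77 and 7.72 in the knockouts of pairs 1 to 4 and 7.42, 7.32, 7.35 and 7.46 in their wild-type siblings. The lowest knockout thus lay above the highest wild type. Cd4 rose by 0.40 ± 0.13 (SD, n = 4 pairs), a 1.31-fold change (limma adjusted p = 0.0427). The adjusted p was close to the threshold. It was 0.108, 0.146, 0.114 and 0.0878 without pair 1, 2, 3 or 4, while the difference stayed between 0.34 and 0.44. Leaving out any 1 pair also lowered the number of calls over all probe sets. A covariate for sex (0.0819) or for RNA integrity (0.0916) beside the block also took it above the threshold. After centring each array on housekeeping, epithelium or pan-leukocyte genes the difference was 0.23, 0.34 and 0.25, with adjusted p-values of 0.0773, 0.0651 and 0.631. In the pan-leukocyte fit, genes with equal differences had equal adjusted p-values whatever their SD. The 0.631 thus follows from the size of the difference, not from its spread over pairs.

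Cd3e and Cd3g encode the CD3ε and CD3γ chains, the signalling part of the T cell receptor on both CD4 and CD8 T cells. Cd3g measured 7.57, 7.55, 7.57 and 7.17 in knockouts and 7.96, 7.91, 7.95 and 8.27 in wild types, with no overlap. The difference was −0.56 ± 0.36, a 1.47-fold lower mean in knockouts, with an adjusted p = 0.0648 that misses the threshold in the limma fit. Pairs 1 to 3 lay close together at −0.39, −0.36 and −0.38, and pair 4 was at −1.1. Cd3e measured 8.34, 8.39, 8.40 and 8.07 in knockouts and 8.54, 8.51, 8.53 and 8.84 in wild types. Its difference of −0.31 ± 0.31 (limma adjusted p = 0.174) was −0.15 without pair 4. The CD3δ gene Cd3d, which lies between Cd3g and Cd3e on chromosome 9, differed by −0.26 ± 0.34 (adjusted p = 0.260), with 0.18 in pair 1 and −0.65 in pair 4.

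Cd8a and Cd8b1 are neighbouring genes on chromosome 6. They encode the α and β chains of CD8, of which many intraepithelial lymphocytes carry α alone. Cd8a measured 8.27, 8.09, 8.00 and 7.60 in knockouts and 8.05, 8.20, 8.35 and 8.72 in wild types. The groups overlapped, with the knockout above its sibling in pair 1 and below it in pairs 2 to 4. The difference was −0.34 ± 0.57 (limma adjusted p = 0.325), with a 95% interval from −0.83 to 0.15. Cd8b1 measured 6.80, 6.79, 6.48 and 6.31 in knockouts and 6.74, 6.73, 7.05 and 7.11 in wild types. Its difference was 0.06 in pairs 1 and 2, −0.57 in pair 3 and −0.80 in pair 4, with a mean of −0.31 ± 0.44 (limma adjusted p = 0.266). Without pair 4 the means were −0.08 for Cd8a and −0.15 for Cd8b1. Over pairs 1 and 2 they were 0.06 and 0.06, and over pairs 3 and 4 −0.74 and −0.69. Both CD8 genes were thus lower in the knockouts of pairs 3 and 4, where siblings also differed in sex, in opposite ways. The knockout was the male of pair 3 and the female of pair 4. Pancreatic acinar markers had medians of −3.93 and −3.35 in those pairs, against −0.44 and 0.23 in pairs 1 and 2. Their part in the CD8 values was not tested, nor was the difference between the sets of pairs.

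Itgae and Ccr9 act in the homing and retention of gut T cells, and they differed in opposite directions. Itgae, the CD103 integrin chain, measured 7.79, 7.62, 7.81 and 7.69 in knockouts and 7.97, 8.07, 8.04 and 8.10 in wild types. The groups did not overlap, and the pairs were alike, with differences from −0.45 to −0.18 and a mean of −0.32 ± 0.13 (limma adjusted p = 0.0660). Ccr9, the receptor for the small-intestinal chemokine CCL25, measured 7.63, 7.51, 7.55 and 7.50 in knockouts and 7.21, 7.32, 7.28 and 7.34 in wild types. Every knockout lay above every wild type, by a mean of 0.26 ± 0.12 (limma adjusted p = 0.0926). Both genes missed the threshold. Their partner genes on epithelial cells, named here after their values were seen, were also not called: the E-cadherin gene Cdh1 differed by −0.15 ± 0.06 (adjusted p = 0.208) and Ccl25 by −0.04 ± 0.15 (adjusted p = 0.789).

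Gzma and Gzmb encode granzymes A and B, serine proteases that cytotoxic lymphocytes deliver into target cells. Gzma measured 10.79, 10.58, 11.05 and 10.30 in knockouts and 11.07, 11.25, 10.93 and 11.46 in wild types. Gzmb measured 8.74, 8.57, 8.90 and 8.14 in knockouts and 9.02, 9.12, 8.89 and 9.47 in wild types. Both genes were lower in the knockout in pairs 1, 2 and 4 and not in pair 3, where the differences were 0.12 and 0.01, and within a pair the differences of Gzma and Gzmb were at most 0.17 apart. The means were −0.50 ± 0.55 for Gzma (limma adjusted p = 0.163) and −0.54 ± 0.58 for Gzmb (limma adjusted p = 0.153), and −0.28 and −0.27 without pair 4. Nfkbia, too, had its smallest difference in pair 3, and a link to the granzyme values was not tested. The perforin gene Prf1, named after its value was seen, lay near background and differed by 0.02 ± 0.23 (limma adjusted p = 0.920).

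The differences of both granzyme genes followed each other over the pairs, as did those of Cd3e and Cd3g. The 250 bases upstream of the starts of both granzyme genes are shown, with those of Ccr9, the gene of the CD8 group that differed in the other direction. The sequences are from RefSeq (GRCm38.p6), 5′ to 3′ along the gene. They are chr13:113100982-113101231 (minus strand), chr14:56262335-56262584 (minus strand) and chr9:123766961-123767210 (plus strand). Capitals mark matches to the RUNX core TGTGGT or to the AP-1 motif TGANTCA, on either strand.
Gzma: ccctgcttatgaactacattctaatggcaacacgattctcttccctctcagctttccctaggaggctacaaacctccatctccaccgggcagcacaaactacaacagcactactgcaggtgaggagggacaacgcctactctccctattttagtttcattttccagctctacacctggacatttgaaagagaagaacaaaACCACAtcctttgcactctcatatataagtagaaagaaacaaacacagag
Gzmb: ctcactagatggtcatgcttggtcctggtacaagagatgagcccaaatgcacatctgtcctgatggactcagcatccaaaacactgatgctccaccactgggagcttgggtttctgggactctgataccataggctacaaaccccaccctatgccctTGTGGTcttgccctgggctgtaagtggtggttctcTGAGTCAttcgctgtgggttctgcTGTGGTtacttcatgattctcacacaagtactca
Ccr9: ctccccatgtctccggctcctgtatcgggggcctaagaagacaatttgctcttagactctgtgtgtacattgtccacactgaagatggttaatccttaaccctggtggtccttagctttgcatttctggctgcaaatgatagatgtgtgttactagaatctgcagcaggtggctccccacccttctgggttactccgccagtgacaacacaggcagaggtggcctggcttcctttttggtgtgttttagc
RUNX factors act in the CD8 lineage, and AP-1 factors are induced on T cell activation. The RUNX core had 1 match for Gzma and 2 for Gzmb, and the AP-1 motif 1 match for Gzmb, while the Ccr9 window held neither. Of all 8 windows found for 7 of the 10 genes, 4 held the RUNX core (Gzma, Gzmb and both starts of Cd160) and 1 the AP-1 motif, and those of Cd3e, Cd3g and Cd8a, also lower on average in knockouts, held neither. Among 32851 windows of the same length, 14% held the RUNX core and 6.75% the AP-1 motif. The ATF/CREB core TGACGT was in 6.47% of them and in 1 of the 8, that of Cd3e. None of the matches overlapped. A match of letters is a description of the window only. Cd4, Cd8b1 and Itgae had no entry in the sequence table, and Cd160 had a pair of starts.

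Cd160, a receptor of natural killer cells and CD8 intraepithelial lymphocytes that binds HVEM, measured 7.31, 7.27, 7.25 and 6.95 in knockouts and 7.61, 7.59, 7.70 and 7.85 in wild types. The groups did not overlap. The difference was −0.30, −0.32, −0.45 and −0.90 in pairs 1 to 4, with a mean of −0.49 ± 0.28, which is 1.41-fold lower in knockouts (limma adjusted p = 0.0579). It missed the threshold narrowly. The HVEM gene Tnfrsf14, named after its value was seen, differed by −0.01 ± 0.08 (limma adjusted p = 0.960).

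**Figure D2:**
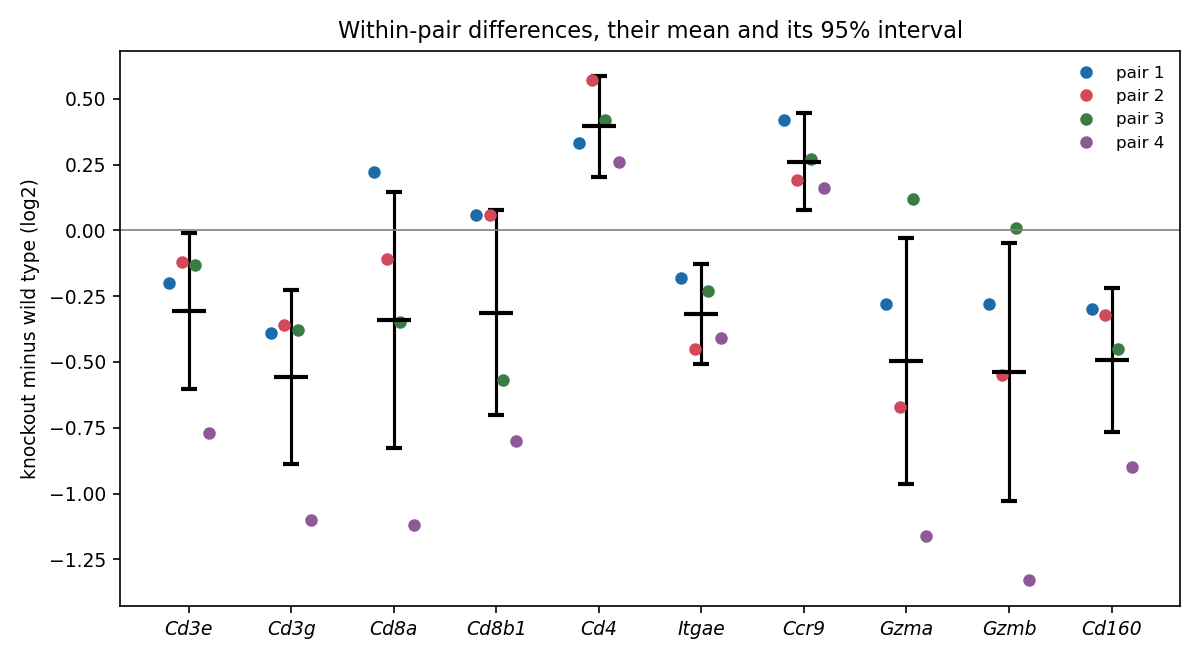
Knockout minus wild type on the log2 scale (y axis) for the 10 genes (x axis): points are the 4 sibling pairs, bars the mean and its 95% interval from the limma fit. Intervals are not adjusted for the number of genes, and they include 0 for Cd8a and Cd8b1, while pair 4 is the lowest point of each gene except Itgae.

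Pair 4 stood apart. In 9 of the 10 genes it had the most negative difference (the exception was Itgae), and the same 9 genes had their lowest knockout value in it. All 10 had their highest wild-type value in it. Leaving it out moved 5 of the means by over 1.5 times, those of Cd3e, Cd8a, Cd8b1, Gzma and Gzmb. The knockout of pair 4 had the lowest RNA integrity number of the 8 mice, 7.0, against 7.7 in its sibling. Other lists also had their lowest median in pair 4: pan-leukocyte genes were at −0.30 (0.54, 0.39 and 0.07 in pairs 1 to 3), macrophage and monocyte genes at −0.40 and smooth muscle genes at −0.62, while epithelium genes were at 0.05. The part of RNA integrity and of tissue makeup in the low T cell values of pair 4 was not tested.

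Genes of the CD8 group were then contrasted with Cd4 within each array. The median difference of the 7 genes lay below that of Cd4 in every pair, by 0.51, 0.89, 0.65 and 1.16 in pairs 1 to 4. Cd8a against Cd4 differed by −0.11, −0.68, −0.77 and −1.38, with a mean of −0.74 ± 0.52 (n = 4 pairs). In a limma fit with the Cd4 value of the same array taken from each probe set the adjusted p was 0.00105, and exact sign flips over the 4 pairs gave p = 0.125, the smallest that 16 sign patterns allow. Every probe set in that fit holds the same Cd4 values, and limma pools variances over probe sets. The standard error of Cd8a there was 0.16 beside an SD of 0.52 over 4 pairs, so limma p-values of this contrast may be too small. The others of the group differed from Cd4 by −0.71 (Cd8b1), −0.71 (Itgae), −0.89 (Gzma), −0.93 (Gzmb) and −0.89 (Cd160), each negative in 4 of 4 pairs (limma adjusted p from 5.99e-05 to 6.49e-04, exact sign flips p = 0.125 each and 0.141 adjusted over 9 contrasts).

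Ccr9 was the exception. It differed from Cd4 by −0.14 ± 0.19 with the sign changing between pairs (limma adjusted p = 0.317, exact sign flips p = 0.25). Cd3g and Cd3e differed from Cd4 by −0.95 ± 0.29 and −0.70 ± 0.23, so genes of the T cell receptor that CD4 and CD8 cells share also lay below Cd4 in every pair. Cd4 itself rose, and 73.3% of all other probe sets were called lower relative to it, against 1.25% called higher. The difference from Cd4 was negative in all 4 pairs in 73.8% of them. The calls of these genes are thus near the background, and they show a change unequal to that of Cd4, not a change of CD8 genes as such. Over pairs 1 and 2 alone Cd8a against Cd4 was −0.40 (limma adjusted p = 0.0634), and over pairs 3 and 4 alone −1.08 (0.0223).

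**Figure D3:**
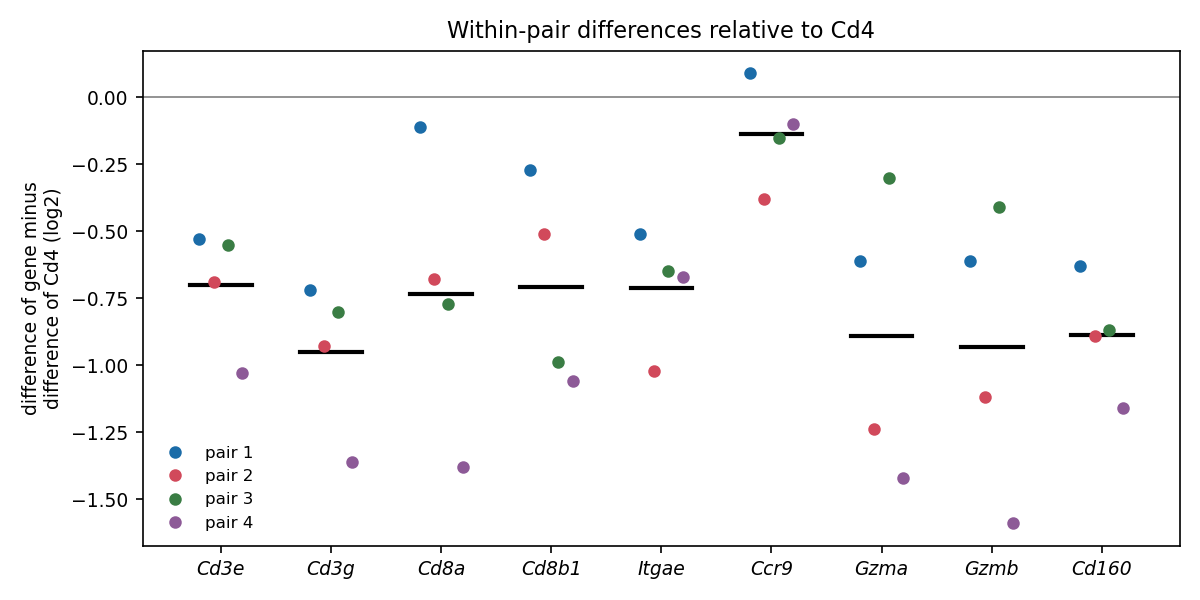
Within-pair difference of each gene minus that of Cd4, on the log2 scale (y axis), for 9 genes (x axis): points are the 4 sibling pairs and bars their mean. Of 36 points, 35 lie below 0, the exception being Ccr9 in pair 1, and the bars run from −0.95 (Cd3g) to −0.14 (Ccr9).

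Other genes of the same cells gave a mixed picture. Of 16 measured genes of T cell receptor signalling 0 were called by limma (1 at unadjusted p under 0.05), with a median of −0.02. The largest differences were that of Cd3d and one of −0.45 ± 0.34 (limma adjusted p = 0.0912) for the adaptor gene Trat1, whose levels lay below background. Of 32 genes of intraepithelial and cytotoxic lymphocytes 2 were called lower and 0 higher, with a median of −0.07. At unadjusted p under 0.05 there were 7 lower and 2 higher, against 3158 lower and 2940 higher of 22206 probe sets. The called genes were Jaml, an adhesion receptor of epithelial T cells (−0.58 ± 0.18, limma adjusted p = 0.0234), and Fasl, the ligand of the death receptor Fas (−0.46 ± 0.17, limma adjusted p = 0.0355). Jaml ran from 7.21 to 7.39 in knockouts and from 7.74 to 8.00 in wild types, and Fasl from 5.57 to 5.80 and from 6.04 to 6.21. Neither overlapped between groups, which their choice by the call favours, and both lost the call on leaving out any 1 pair (adjusted p from 0.0614 to 0.127). Such losses were common over all probe sets. With 4 pairs 702 were called higher and 599 lower, and without 1 pair 89 to 219 and 56 to 240. Losing a call in this way, here and below, is thus not particular to the gene named.

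The helper and regulatory T cell list had 1 of 26 called higher and 0 lower (7 and 2 at unadjusted p under 0.05), with a median of 0.005. At that unadjusted level 2940 of 22206 probe sets were higher and 3158 lower. The called gene was Ccr4, a chemokine receptor of helper and regulatory T cells (0.70 ± 0.29, limma adjusted p = 0.0273). Its range was 5.44 to 5.79 in knockouts and 4.66 to 4.94 in wild types, with both group means below the background level of 5.65. Ccr4 lost the call without any 1 pair (adjusted p from 0.0567 to 0.0897). Of this list 13 genes lay above background. The co-stimulator gene Icos, named after its value was seen, had 0.46 ± 0.23 (limma adjusted p = 0.0514).

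Among 21 genes by which epithelium or stroma can act on these lymphocytes, 2 were called higher and 1 lower (5 and 2 at unadjusted p under 0.05), with a median of −0.02. At that unadjusted level 2940 of 22206 probe sets were higher and 3158 lower. Il15, the cytokine that sustains CD8 intraepithelial lymphocytes, ran from 7.66 to 8.26 in knockouts and from 9.32 to 9.85 in wild types. It fell by 1.43 ± 0.52 on the log2 scale, which is 2.69-fold (limma adjusted p = 0.0161), with −1.29, −1.11, −1.12 and −2.19 in pairs 1 to 4. Il15 was thus also lowest in pair 4, and its adjusted p was 0.0564 without pair 1 and 0.0534 without pair 2. Its receptor gene Il15ra rose by 0.44 ± 0.19 (limma adjusted p = 0.0459), with adjusted p-values from 0.105 to 0.118 on leaving out 1 pair. Cxcl16, which encodes a membrane-bound chemokine for CXCR6-bearing lymphocytes, rose by 0.89 ± 0.16 (limma adjusted p = 0.00724) and kept its call without any 1 pair (adjusted p from 0.0122 to 0.0416). The receptor gene Cxcr6, named after its value was seen, differed by 0.03 ± 0.37 (limma adjusted p = 0.907).

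**Figure D4:**
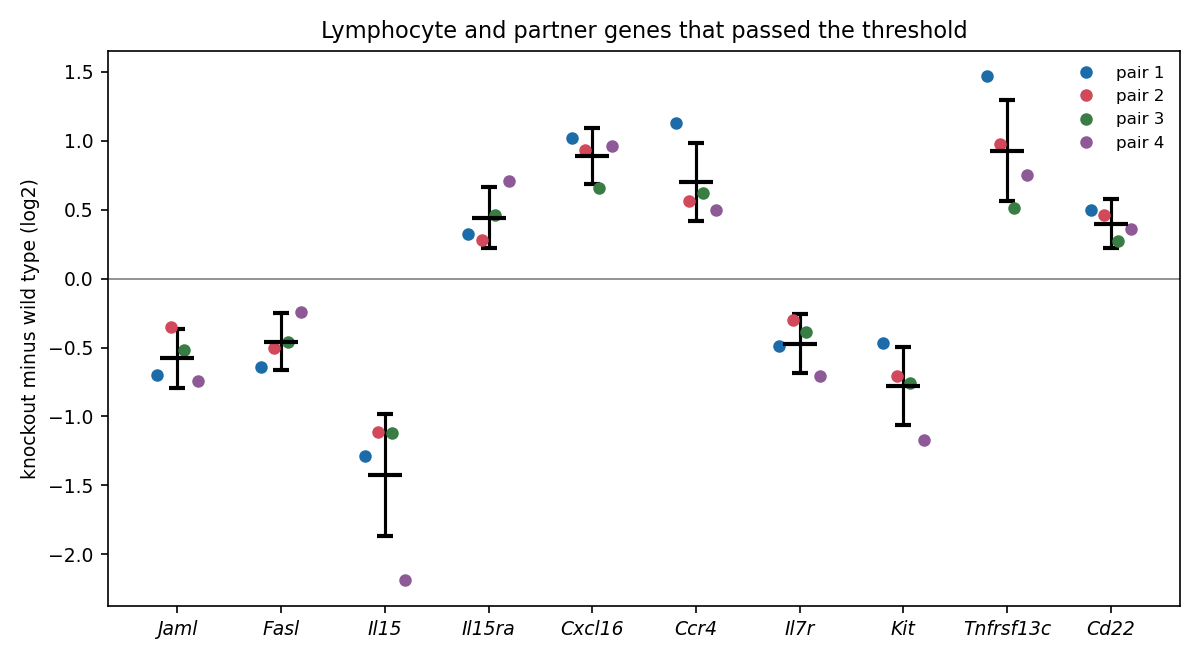
Knockout minus wild type on the log2 scale (y axis) for 10 lymphocyte and partner genes that passed the threshold (x axis): points are the 4 sibling pairs, bars the mean and its 95% interval from the limma fit. All 4 pairs have the same sign for each gene, which picking genes by the threshold on these same differences favours. Il15 has the lowest mean, −1.43.

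Lists of other leukocyte markers were set beside the 10 genes without a test of the difference. Of 14 B cell and follicle genes 2 rose and 0 fell, the receptor genes Tnfrsf13c (0.93 ± 0.41, limma adjusted p = 0.0267) and Cd22 (0.40 ± 0.10, limma adjusted p = 0.0355), and the list had a median of 0.37 (0.67, 0.51, 0.07 and 0.04 in pairs 1 to 4). Of 8 natural killer and innate lymphoid genes 2 fell, the interleukin-7 receptor gene Il7r (−0.47 ± 0.18, limma adjusted p = 0.0355) and Kit, a receptor of mast cells and some innate lymphoid cells (−0.78 ± 0.29, limma adjusted p = 0.0223). On leaving out any 1 pair Cd22 (adjusted p from 0.0692 to 0.131) and Il7r (0.0807 to 0.109) lost the call. Tnfrsf13c lost it without pair 1, 2 or 4 (0.0567, 0.0991 and 0.0764) and Kit without pair 2, 3 or 4 (0.0866, 0.0632 and 0.0558). By limma 0 of 14 pan-leukocyte, 0 of 13 macrophage and monocyte and 0 of 10 plasma cell genes were called (1, 3 and 4 at unadjusted p under 0.05). At that level 6 of the B cell and follicle genes were higher and 0 lower. Of the natural killer and innate lymphoid genes 1 was higher and 3 lower, against 2940 higher and 3158 lower of all 22206 probe sets. In pair 4 the pan-leukocyte and macrophage medians were −0.30 and −0.40, each the lowest of the 4 pairs. The mean level of the B cell list ran from 6.74 to 7.19 in knockouts and from 6.46 to 6.73 in wild types, and that of the macrophage list from 7.53 to 7.91 and from 7.57 to 7.89. The part of B cells, follicles or macrophages in the higher Cd4 was not tested.

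**Figure D5:**
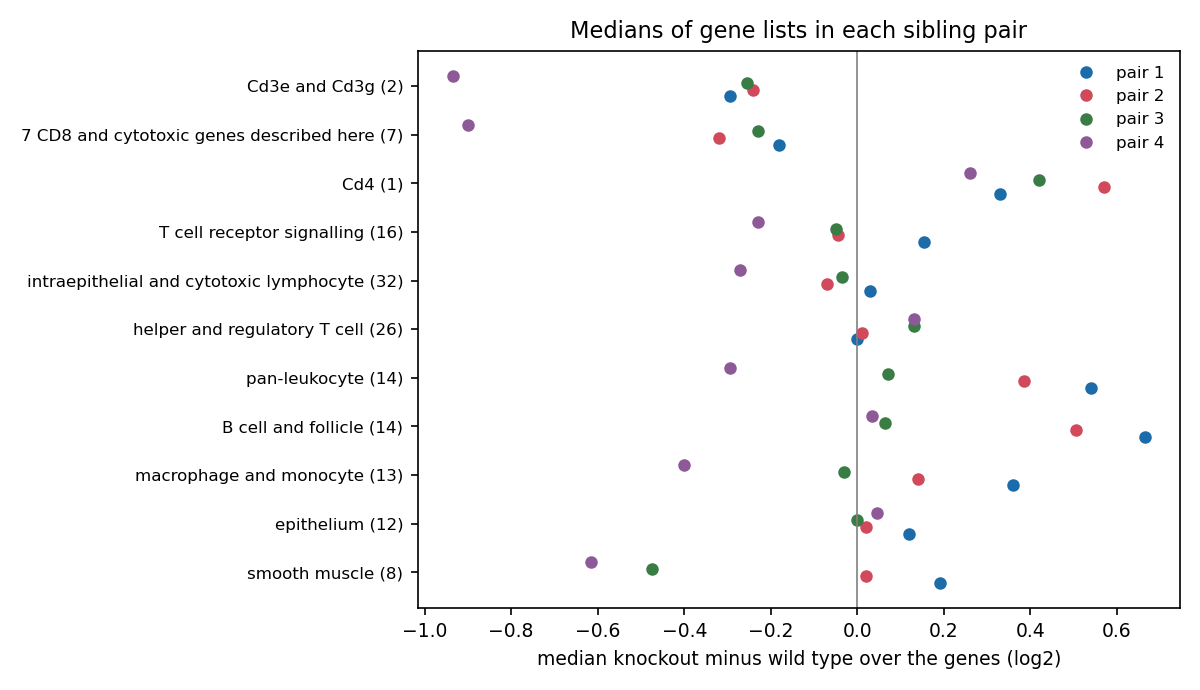
Median knockout minus wild type over the genes of each list, on the log2 scale (x axis), with the number of measured genes in parentheses and 1 point per sibling pair. Cd3e and Cd3g and the 7 CD8 and cytotoxic genes lie below 0 in all 4 pairs and Cd4 above 0 in all 4, while pan-leukocyte genes run from −0.30 to 0.54.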

How the data were processed

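RNA of 8 duodenum samples was labelled with biotin and hybridized to Clariom S mouse arrays, per the labels. The authors deposited log2 values, 1 per probe set. The submitters' processing notes list RMA and Transcriptome Analysis Console 4.0, with no settings in the sources used here. The median SD of the 4 pair means was 0.0175, against 0.0897 expected from the within-pair differences, so most differences between pairs had been removed by a step that no source used here records. Siblings' deviations from their group means correlated between −0.913 and −0.870. The labels name the sibling pairs, which was the basis of the block.

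Differences were fitted by lmFit and eBayes of limma 3.58.1 (R 4.3.3) with the pair as a block, two-sided, with Benjamini-Hochberg adjustment over 22206 probe sets and a threshold of 0.05. The fit had 3 residual and 6.63 total degrees of freedom, and the number of arrays limits the precision. It takes the 4 differences as independent, although those of pairs 1 and 2 (r = 0.682) and of pairs 3 and 4 (r = 0.673) were alike across probe sets, so p-values may be too small. The number after ± is the SD over the differences of the 4 pairs. The contrast with Cd4 subtracted its value on each array before the fit. The degrees of freedom given above are not those of that contrast, in which all probe sets share the Cd4 values. Probe sets were named from GEO's platform annotation (19572 with 1 gene symbol, 0 with several, 2634 with none), and all 10 gene IDs had the same symbol in RefSeq. Of each other list up to 4 called genes with the smallest adjusted p were named, and where none was called the 2 farthest from 0, and others only where stated. The genes and lists were chosen with earlier results of these data known. Alternatives were other designs, covariates, centrings, filters and subsets of pairs.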

Additional observations from a re-analysis of the deposited data

Results flagged for a closer look

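Of 22 sets of 4 group values (10 genes and Nfkbia, in 2 groups), 5 held a sample whose gap to its nearest neighbour exceeded Dixon's 95% critical value as a share of the range of the group; chance gives about 1 in 20. For Cd3g the knockout of pair 4 was low (7.17, gap ratio 0.950) and its wild-type sibling high (8.27, gap ratio 0.861). For Cd3e the wild type of pair 4 was high (8.84, gap ratio 0.909), and for Cd160 the knockout of pair 4 was low (6.95, gap ratio 0.833). For Nfkbia the knockout of pair 3 was high (7.72, gap ratio 0.841). Because pair means are nearly equal in these values, the high wild type and the low knockout of 1 pair are not independent.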

How the results depend on the processing

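With the block left out, 8 genes were called (2 higher and 6 lower), beside 3622 higher and 4026 lower of 22206 probe sets. That fit takes siblings as independent, although their deviations correlated between −0.913 and −0.870, so its p-values are too small. A random block called 3 (2 and 1), beside 1036 higher and 982 lower probe sets, and the adjusted threshold of 0.1 gave 5 (2 and 3). At that threshold at least 3202 and fewer than 3446 of 22206 probe sets passed in either direction, by the ranks of genes beside it. At unadjusted p in the settings below no share over all probe sets was taken, so those counts stand without a background. Sex or RNA integrity as a covariate gave 0 (8 at unadjusted p under 0.05 in either). Of all probe sets, 231 were called higher and 233 lower with sex, and 212 and 152 with RNA integrity. Quantile normalization and trend with robust variance each gave 3 (1 higher and 2 lower). Over all probe sets they called 641 higher and 581 lower, and 1135 and 862. Centring on housekeeping, epithelium or pan-leukocyte genes gave 7, 3 and 2, in each case with 0 higher. Over all probe sets these centrings called 494 higher and 5006 lower, 574 and 1211, and 212 and 545. In the pan-leukocyte fit p-values followed the size of the difference alone, so its 2 calls take no account of the spread over pairs. Leaving out any 1 pair gave 0 calls (5 to 8 of the genes at unadjusted p under 0.05), as did pairs 1 and 2 or pairs 3 and 4 alone. Over all probe sets 702 were called higher and 599 lower in the reported fit. Without pair 1, 2, 3 or 4 these were 136 and 68, 89 and 56, 219 and 240, and 143 and 96. Pairs 1 and 2 alone gave 0 and 0, and pairs 3 and 4 alone 1 and 25. The filter on dim probe sets gave 1, beside 819 higher and 554 lower of 15012 probe sets. Causes of the other shifts in these counts were not tested, except that subsets have fewer samples. Nfkbia ran from −3.11 to −2.45 on leaving out 1 pair and lost the call without pair 1, 2 or 4. It was −3.10 and −2.21 in pairs 1 and 2 and in pairs 3 and 4 alone, also without passing the threshold. Cd8a against Cd4 ran from −0.94 to −0.52 on leaving out 1 pair and was −0.40 in pairs 1 and 2 alone, where it missed the threshold. In pairs 1 and 2 alone the sign turned for Cd8a (0.055), Cd8b1 (0.060), Cnn1 (0.035) and Tagln (0.215), and in pairs 3 and 4 alone for Cd37 (−0.195) and Cd52 (−0.160). The other 8 of the 10 genes kept their sign in all 16 settings. Of the genes named for their values with a difference near 0, Prf1 turned to −0.017 with RNA integrity as a covariate, to −0.14, −0.036 and −0.13 on centring on housekeeping, epithelium or pan-leukocyte genes, and ran from −0.067 to 0.117 on leaving out 1 pair. Cxcr6 turned to −0.022 with RNA integrity, to −0.13, −0.023 and −0.11 on the same centrings, and ran from −0.12 to 0.18 on leaving out 1 pair. On leaving out 1 pair Ccl25 ran from −0.093 to 0.017 and Tnfrsf14 from −0.033 to 0.017, and in pairs 3 and 4 alone they were 0.085 and 0.065. Over 54 genes and contrasts with Cd4, Nfkbia and Cd8a against Cd4 aside, 617 values under other settings kept their direction and side of the threshold, 143 kept the direction and lost the call, 54 kept it and gained one, and 22 turned.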

Other observations

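Further lists that could be sampled with the duodenum differed by pair. Of 9 adipose genes 0 were called by limma (5 at unadjusted p under 0.05), with list medians of 1.61, 1.17, 0.16 and −0.18 in pairs 1 to 4. Of all probe sets, 27.5% were at unadjusted p under 0.05 in either direction. Adipoq, which encodes the fat cell hormone adiponectin, differed by 5.10, 4.84, 0.85 and 0.21. Of 11 acinar genes 0 were called (6 at unadjusted p under 0.05), and the carboxyl ester lipase gene Cel differed by −1.01, −0.83, −5.0 and −4.7. By limma 2 of 10 dendritic cell genes were called higher, Flt3 (0.39 ± 0.13) and Clec9a (0.62 ± 0.29), both below background. Also called higher, and above background, were 1 of 10 neutrophil genes, Ltf (0.82 ± 0.35), and 2 of 12 epithelium genes, Cdx1 (0.44 ± 0.13) and Elf3 (0.54 ± 0.11). The same held for 1 of 10 housekeeping genes, Gusb (0.37 ± 0.12). On leaving out any 1 pair Flt3 (adjusted p from 0.0929 to 0.130), Cdx1 (0.0691 to 0.107) and Gusb (0.0884 to 0.133) lost the call. Clec9a and Elf3 kept it only without pair 3 (0.0462 and 0.0496), and Ltf only without pair 1 (0.0277). Of 8 smooth muscle genes 0 were called, with 0 at unadjusted p under 0.05.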
